A study of Mus musculus with 24 samples.

Results

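Insig1 and the 6 other genes that govern the release of sterol regulatory element-binding proteins (SREBPs) were followed in adipose tissue of male C57Bl/6J mice. The 7 genes, Insig1, Insig2, Srebf1, Srebf2, Scap, Mbtps1 and Mbtps2, were taken by gene symbol from the array annotation and were measured by 21 of the 45281 probes, out of 19053 named genes. Insig1 was singled out because its probes had been seen to move with diet and to disagree in size on these same arrays. Its values are therefore given as a description with no test in any comparison, and the tests concern the other 6 genes.

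The study hybridised RNA of white adipose tissue (WAT) and brown adipose tissue (BAT) to Illumina mouse whole-genome arrays, 24 in all. Each tissue had 4 arrays from mice on a high-fat diet with the fish-oil fatty acids EPA and DHA (eicosapentaenoic and docosahexaenoic acid; EPA/DHA), 4 from mice on a high-fat diet with corn oil and 4 from mice on a low-fat diet, the control diet. Per the labels, mice were picked to stand for their diet group in body weight and plasma lipids, so the spread between arrays may understate that between mice. The WAT depot, the age of the mice and the time on the diets are not given in the labels, which also do not say whether WAT and BAT came from the same mice.

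SREBPs are made as precursors in the membrane of the endoplasmic reticulum, bound to the escort protein Scap. When sterols are plentiful, Insig1 or Insig2 holds Scap in place. When sterols are low, Scap carries the precursor to the Golgi, where the site-1 protease (Mbtps1) and the site-2 protease (Mbtps2) cut it and free the part that enters the nucleus. Srebf2 chiefly drives cholesterol synthesis and uptake, Srebf1 chiefly fatty acid synthesis, and Insig1 is itself an SREBP target, so that the pathway feeds back on its own brake.

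Values are the deposited log2 expression of each probe, which ran from 6.95 to 14.79 with a floor near 7. All arrays had been brought to nearly the same distribution, the sorted values of different arrays lying within 0.0069 of each other, so a change in total RNA signal could not be seen. The tissue labels were checked against marker genes. Ucp1, the heat-producing uncoupling protein of brown fat, read 7.09 to 10.6 in WAT and 13.6 to 14.4 in BAT, and Lep, the white adipocyte hormone leptin, read 13.2 to 14.7 in WAT and 7.79 to 11.8 in BAT. Fabp4, an abundant adipocyte gene, stayed at 7.15 to 7.96 at its brightest probe in all arrays. Not every white adipocyte gene was higher in WAT, and Plin1, Pparg and Fabp4 had lower medians there than in BAT. On low fat, 6 of 9 tested white adipocyte genes were higher in WAT than in BAT. By limma 5 passed as higher and 1 as lower, where 37.5% of all probes passed in either direction. Of 10 brown adipocyte genes, 10 passed as lower in WAT on low fat (limma), beside the same share of all probes. The extraction text names skeletal muscle as the source, and the mean log2 value of 11 muscle genes was 7.32 to 7.53 in WAT and 7.87 to 12.5 in BAT. The mean of 12 liver genes was 9.33 to 11.7 in WAT and 7.45 to 8.25 in BAT. Of 10 tested liver genes, 10 passed as higher in WAT on low fat (limma), beside 37.5% of all probes called. Apoa2 read 10.2 to 14.4 in WAT and 7.19 to 8.6 in BAT, and Ttr 10.3 to 13.8 and 7.05 to 8.78. Alb and Fgb lay at the floor in both tissues, and whether their probes respond was not tested. Probes were compared between groups only, since brightness does not rank probes by transcript level. In RNA from whole tissue, fewer cells of a type and less RNA per cell cannot be told apart.

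Of the 21 member probes, 16 passed the filter on low values in WAT and 16 in BAT. In both tissues 14 passed, and 3 passed in neither, which were Insig1 ILMN_2620965, Srebf1 ILMN_2696876 and Mbtps2 ILMN_1235967. Insig2 ILMN_1234858 and Mbtps2 ILMN_2593049 passed only in WAT. Mbtps1 ILMN_1254957 and ILMN_1231860 passed only in BAT. Every gene had at least 1 probe that passed in each tissue.

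The stretches before the RefSeq starts of Insig1, Srebf2 and Scap are shown because these were the members with a probe that read lower in WAT than in BAT on the low-fat diet by more than 0.4 log2 units. Each run is the 250 bases before the start, written 5′ to 3′ on the gene's strand in assembly GRCm38.p6. Capitals mark an E-box (CACGTG), an NF-Y box (CCAAT) or a GC box (GGGCGG), searched on both strands. The Scap run belongs to the first of its 2 annotated starts.
Insig1, chr5:28071162-28071411, plus strand: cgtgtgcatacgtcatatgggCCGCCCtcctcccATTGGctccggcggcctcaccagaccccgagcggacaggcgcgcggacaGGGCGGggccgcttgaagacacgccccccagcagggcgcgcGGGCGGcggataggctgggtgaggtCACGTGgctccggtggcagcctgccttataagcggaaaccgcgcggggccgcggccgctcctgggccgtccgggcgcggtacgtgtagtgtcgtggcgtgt
Srebf2, chr15:82147019-82147268, plus strand: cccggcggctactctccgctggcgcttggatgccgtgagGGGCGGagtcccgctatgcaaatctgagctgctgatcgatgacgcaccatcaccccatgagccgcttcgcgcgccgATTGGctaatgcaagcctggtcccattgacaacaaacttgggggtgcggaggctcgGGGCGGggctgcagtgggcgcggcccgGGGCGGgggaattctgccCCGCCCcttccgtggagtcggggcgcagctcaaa
Scap, chr9:110333038-110333287, plus strand: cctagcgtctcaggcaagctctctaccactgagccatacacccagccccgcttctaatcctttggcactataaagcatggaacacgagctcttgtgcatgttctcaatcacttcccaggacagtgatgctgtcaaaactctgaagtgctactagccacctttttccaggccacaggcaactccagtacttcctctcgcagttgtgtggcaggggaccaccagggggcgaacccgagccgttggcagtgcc

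The Insig1 run held 1 E-box, 101 to 96 bases before the start, 1 NF-Y box at 216 to 212 bases and 3 GC boxes. The Srebf2 run held 1 NF-Y box, 135 to 131 bases before the start, and 4 GC boxes, with no E-box. The Scap run held none of these motifs, whereas the run before its second start held 1 E-box and 1 GC box. Among all 32851 such runs in the RefSeq table, 6.02% held an E-box, 33.8% an NF-Y box and 32.7% a GC box. A core of the sterol regulatory element (TCACNCCAC), found in 1.05% of all runs, had no match in any run of the 7 genes. A missing match says only that these letters are not in these windows.

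Insig1, the sterol-sensitive brake on Scap, was higher on the EPA/DHA diet than on the low-fat diet in WAT and lower in BAT at 2 of its 3 probes above the floor, and the third moved less. At ILMN_1245272 the difference of EPA/DHA from low fat was 1.02 ± 0.12 log2 units in WAT (SE, n = 4 per group), a 2.03-fold higher value on this scale, and -0.85 ± 0.15 in BAT, a ratio of 0.554. At ILMN_2606693 it was 0.96 ± 0.12 in WAT and -0.66 ± 0.12 in BAT. At ILMN_2895388, the brightest of the Insig1 probes, it was 0.40 ± 0.15 in WAT and -0.01 ± 0.15 in BAT. The 2 larger shifts of each tissue thus pointed opposite ways.

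The arrays behind ILMN_1245272 are given in the order of their replicate numbers. In WAT the probe read 9.27, 9.03, 9.20 and 9.40 on EPA/DHA, 8.73, 8.68, 8.62 and 8.55 on corn oil, and 8.59, 8.15, 8.06 and 8.02 on low fat. The EPA/DHA arrays were all above the others, while 1 low-fat array lay inside the corn-oil range. The BAT values were 8.51, 9.14, 8.72 and 8.99 on EPA/DHA, 9.33, 8.95, 9.07 and 9.35 on corn oil, and 9.87, 9.54, 9.89 and 9.45 on low fat. There the low-fat arrays were all above the others, and the EPA/DHA and corn-oil arrays overlapped. The diet order of the means was therefore reversed between the tissues, at 9.23 ± 0.15, 8.64 ± 0.07 and 8.21 ± 0.26 in WAT and 8.84 ± 0.28, 9.18 ± 0.20 and 9.69 ± 0.23 in BAT for EPA/DHA, corn oil and low fat (SD, n = 4 each).

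The probe ILMN_2606693 followed the same order. In WAT it read 9.06, 8.89, 9.05 and 9.45 on EPA/DHA, 8.48, 8.48, 8.45 and 8.60 on corn oil, and 8.43, 8.13, 7.996 and 8.06 on low fat, with no overlap between any of the diets. The BAT arrays gave 8.59, 8.93, 8.63 and 8.96 on EPA/DHA, 8.97, 8.99, 9.26 and 9.03 on corn oil, and 9.39, 9.48, 9.69 and 9.19 on low fat. The EPA/DHA arrays were below all others there, and 1 low-fat array lay inside the corn-oil range.

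ILMN_2895388 showed a smaller diet pattern. In WAT it read 9.57, 9.56, 8.96 and 9.44 on EPA/DHA, 8.69, 9.24, 9.13 and 9.07 on corn oil, and 9.02, 8.72, 9.10 and 9.10 on low fat. A single EPA/DHA array, replicate 3, fell among the arrays of the other diets, and the other 3 were above them. Its BAT values were 9.88, 9.70, 9.61 and 9.97 on EPA/DHA, 9.96, 9.48, 9.99 and 10.07 on corn oil, and 9.61, 9.93, 9.61 and 10.06 on low fat, and the diets overlapped throughout. The remaining probe, ILMN_2620965, had group means of 7.06 to 7.09 and carried no diet information above the floor.

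**Figure D1:**
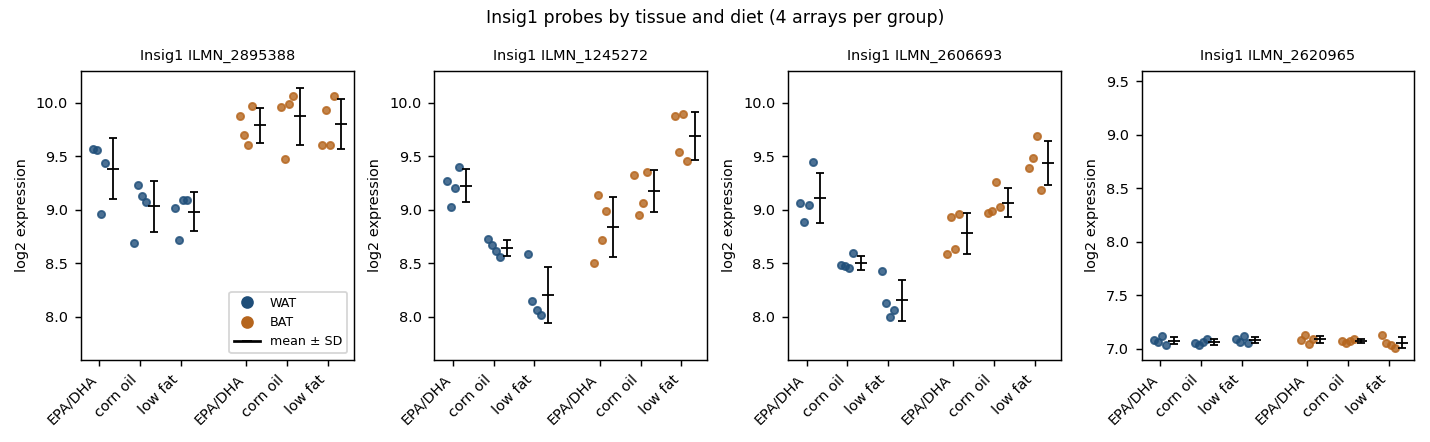
Log2 expression of the 4 Insig1 probes (1 panel each, the last on a shifted axis of the same span) in WAT and BAT on the 3 diets, with 1 point per array and the mean ± SD of 4 arrays beside them. At ILMN_1245272 and ILMN_2606693 the means step down from EPA/DHA to low fat in WAT and step up in BAT, while ILMN_2895388 moves little in BAT and ILMN_2620965 stays near 7.

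The step between the 2 high-fat diets and the step between corn oil and low fat both took part in this. EPA/DHA minus corn oil in WAT was 0.58 ± 0.12 at ILMN_1245272, 0.61 ± 0.12 at ILMN_2606693 and 0.35 ± 0.15 at ILMN_2895388. Corn oil minus low fat in WAT was 0.44 ± 0.12, 0.35 ± 0.12 and 0.05 ± 0.15 at the same probes. The standard errors are given as a description of spread only, because Insig1 was chosen on these values. In BAT, EPA/DHA minus corn oil was -0.34 ± 0.15, -0.28 ± 0.12 and -0.08 ± 0.15, and corn oil minus low fat was -0.51 ± 0.15, -0.37 ± 0.12 and 0.07 ± 0.15. The 3 comparisons within a tissue share arrays and are not independent of each other.

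Groups without overlap are common on such arrays, so the Insig1 probes are set beside all probes. In WAT, 8.78% of all kept probes had no overlap between EPA/DHA and corn oil, 10.4% between corn oil and low fat and 4.07% between EPA/DHA and low fat. In BAT the shares were 3.56%, 4.78% and 2.87%. Of the 3 Insig1 probes, 2, 1 and 2 had no overlap in these WAT comparisons and 1, 1 and 2 in the BAT comparisons. Since Insig1 was chosen on these values, nothing is read from the counts.

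The diet effect in WAT minus that in BAT was 1.87 ± 0.20 for EPA/DHA against low fat at ILMN_1245272, 1.61 ± 0.17 at ILMN_2606693 and 0.41 ± 0.22 at ILMN_2895388. For EPA/DHA against corn oil it was 0.92 ± 0.20, 0.89 ± 0.17 and 0.43 ± 0.22, and for corn oil against low fat 0.95 ± 0.20, 0.72 ± 0.17 and -0.02 ± 0.22. The gap between tissues was thus larger at ILMN_1245272 and ILMN_2606693 than at ILMN_2895388. Insig1 was chosen on these values, so the standard errors describe the spread and are not read as a test.

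Insig1 was singled out partly because its probes disagree in size, so the values here only describe that disagreement. For EPA/DHA against low fat, the effect at ILMN_1245272 minus that at ILMN_2895388 was 0.62 ± 0.22 in WAT and -0.84 ± 0.24 in BAT, and with ILMN_2606693 in its place 0.56 ± 0.21 and -0.64 ± 0.21. These standard errors come from differences taken within each array. Over the 12 arrays of a tissue, ILMN_1245272 and ILMN_2606693 correlated at r = 0.974 in WAT and 0.89 in BAT. Their correlations with ILMN_2895388 were 0.551 and 0.579 in WAT and -0.038 and -0.027 in BAT. All such correlations pool the 3 diets and are descriptions, since the probes share arrays. Where each probe lies on the Insig1 transcript, and whether they read different transcript ends, was not tested.

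Scores of other cell types moved beside these values and are given with them. The mean of 11 macrophage genes in WAT was 8.89 to 9.34 on EPA/DHA, 9.17 to 9.44 on corn oil and 8.92 to 9.16 on low fat. The mean of 10 brown adipocyte genes in WAT was 8.01 to 9.47, 7.67 to 8.59 and 7.76 to 8.14 on the same diets. The 9.47 was 1 array, EPA/DHA replicate 2, and the other 3 EPA/DHA arrays were at 8.01 to 8.23. The mean of 12 liver genes in WAT was 9.33 to 11.1 on EPA/DHA (median 9.94), 9.45 to 11.7 on corn oil (median 10.9) and 9.59 to 11.6 on low fat (median 10.4). The muscle score in BAT was 7.87 to 12.5, 10.2 to 12.3 and 9.02 to 11.1 in the same order of diets. With the brown adipocyte, liver or macrophage score as a covariate, EPA/DHA minus low fat in WAT was 1.03 to 1.07 at ILMN_1245272 (1.02 without). It was 0.97 to 0.98 at ILMN_2606693 (0.96 without) and 0.30 to 0.38 at ILMN_2895388 (0.40 without). With the muscle score in BAT it was -0.87, -0.67 and -0.04 at the same probes. At ILMN_2895388 with the macrophage score, corn oil minus low fat in WAT became -0.27 ± 0.11, against 0.05 ± 0.15 without it. EPA/DHA minus corn oil there was 0.57 ± 0.10 with the macrophage score, against 0.35 ± 0.15 without a covariate. With the brown adipocyte and liver scores it was 0.26 ± 0.17 and 0.31 ± 0.17. The part of these cells in the Insig1 values was not tested. The brown adipocyte and macrophage covariates in WAT were added after the data had been seen.

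The genes with a kept probe that followed Insig1 ILMN_2895388 most closely over the 12 arrays of WAT were Cnpy2 (r = 0.914), Eif3i (0.888), Arl14ep (0.877), Nmt1 (0.875) and Acadm (0.868). In BAT they were Fem1al (0.915), Lmx1b (0.845), B3galnt2 (0.822), Podxl2 (0.813) and Smad3 (0.809). No gene was in both lists of 5. For the other Insig1 probes, looked at after their values had been seen, the 5 closest genes in WAT were Tlcd1 (0.92), Mrto4 (0.909), Mtfp1 (0.908), Ttc9c (0.889) and Nsun4 (0.889) at ILMN_1245272, and Tlcd1 (0.912), Acss2 (0.898), Qrsl1 (0.897), Agpat2 (0.894) and Dnajc10 (0.889) at ILMN_2606693. In BAT they were Tsc22d1 (0.93), Tspan18 (0.926), Chmp4b (0.909), Ilrun (0.901) and Atp5l (0.892) at ILMN_1245272, and Chpt1 (0.913), Dcpp2 (0.897), Ilrun (0.896), Lzts3 (0.877) and Prkcz (0.872) at ILMN_2606693. Each is the top of a ranking over all kept genes and is given as a description.

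Insig2, the second sterol-sensitive anchor of Scap, was higher in WAT than in BAT at its 2 brighter probes, and its probes passed no test between diets. ILMN_2690256 read 9.69, 9.74, 9.69 and 9.65 in WAT on EPA/DHA, 9.62, 9.69, 9.83 and 9.54 on corn oil and 9.79, 9.90, 9.81 and 9.60 on low fat. In BAT it read 9.09, 8.87, 8.83 and 9.11 on EPA/DHA, 9.05, 8.87, 9.32 and 9.08 on corn oil and 9.09, 8.72, 9.19 and 9.26 on low fat. All WAT arrays were above all BAT arrays, and the diets overlapped within each tissue. ILMN_1216822 ran from 9.20 to 9.70 in WAT and from 8.65 to 9.13 in BAT, again without overlap. EPA/DHA minus low fat was -0.08 ± 0.07 in WAT and -0.09 ± 0.13 in BAT at ILMN_2690256, and -0.19 ± 0.09 and 0.05 ± 0.08 at ILMN_1216822. The lowest adjusted p of these was 0.681 (limma, over all kept probes). ILMN_1234858 lay at 7.06 to 7.18 in group means.

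Srebf1, which encodes the SREBP of fatty acid synthesis, was measured above the floor by ILMN_2792089 alone. It read 8.90, 8.35, 8.87 and 8.81 in WAT on EPA/DHA, 8.89, 8.60, 8.74 and 8.85 on corn oil and 8.77, 8.50, 8.51 and 8.44 on low fat. The BAT arrays read 9.05, 8.59, 8.10 and 8.99, then 8.94, 8.19, 8.55 and 8.57, then 8.52, 9.01, 9.09 and 8.29 on the same diets. The spread between BAT arrays of one diet reached an SD of 0.44, and all groups overlapped. Corn oil minus low fat was 0.21 ± 0.12 in WAT (limma adjusted p = 0.44) and -0.17 ± 0.24 in BAT.

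Srebf2, which encodes the SREBP of cholesterol synthesis, stood nearer the floor. ILMN_1234082 read 7.46, 7.37, 7.47 and 7.50 in WAT on EPA/DHA, 7.39, 7.30, 7.45 and 7.34 on corn oil and 7.43, 7.38, 7.41 and 7.31 on low fat. In BAT it read 7.80, 7.78, 7.74 and 7.70 on EPA/DHA, 7.75, 7.77, 7.70 and 7.74 on corn oil and 7.85, 7.83, 7.95 and 7.74 on low fat. Each BAT array was above each WAT array, and the diets overlapped. ILMN_1223598 ran from 7.28 to 7.63 in WAT and from 7.34 to 7.91 in BAT, so that the tissues overlapped at this probe.

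Scap, the escort of both precursors, varied little in WAT and had its highest values in BAT on low fat. ILMN_2764143 read 7.85, 7.88, 7.87 and 7.82 in WAT on EPA/DHA, 7.84, 7.90, 7.78 and 7.95 on corn oil and 7.82, 7.82, 7.78 and 7.79 on low fat. In BAT it read 8.11, 7.89, 8.11 and 7.96 on EPA/DHA, 7.95, 7.95, 7.97 and 8.003 on corn oil and 8.32, 8.56, 8.17 and 8.05 on low fat. The corn-oil arrays of BAT were all below its low-fat arrays, a difference of -0.31 ± 0.09 that did not pass (limma adjusted p = 0.405). ILMN_1229873 had group means of 7.26 to 7.34.

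The proteases varied over a narrow range. Mbtps1, the site-1 protease that makes the first cut, read 7.86 to 8.17 in WAT and 7.93 to 8.29 in BAT at ILMN_1239494. At ILMN_1245330 it read 7.79 to 8.02 in WAT and 7.93 to 8.17 in BAT. At ILMN_2748537 it read 7.61 to 7.78 in WAT and 7.62 to 7.98 in BAT, and its 4 EPA/DHA arrays of WAT, at 7.67, 7.75, 7.78 and 7.71, were above all 4 corn-oil arrays, at 7.63, 7.61, 7.62 and 7.62. That difference, 0.10 ± 0.03, had an adjusted p of 0.121 (limma). The other Mbtps1 probes, at group means of 7.07 to 7.14, and all 3 Mbtps2 probes, the brightest with group means of 7.12 to 7.19, were close to the floor, where small differences can be understated.

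**Figure D2:**
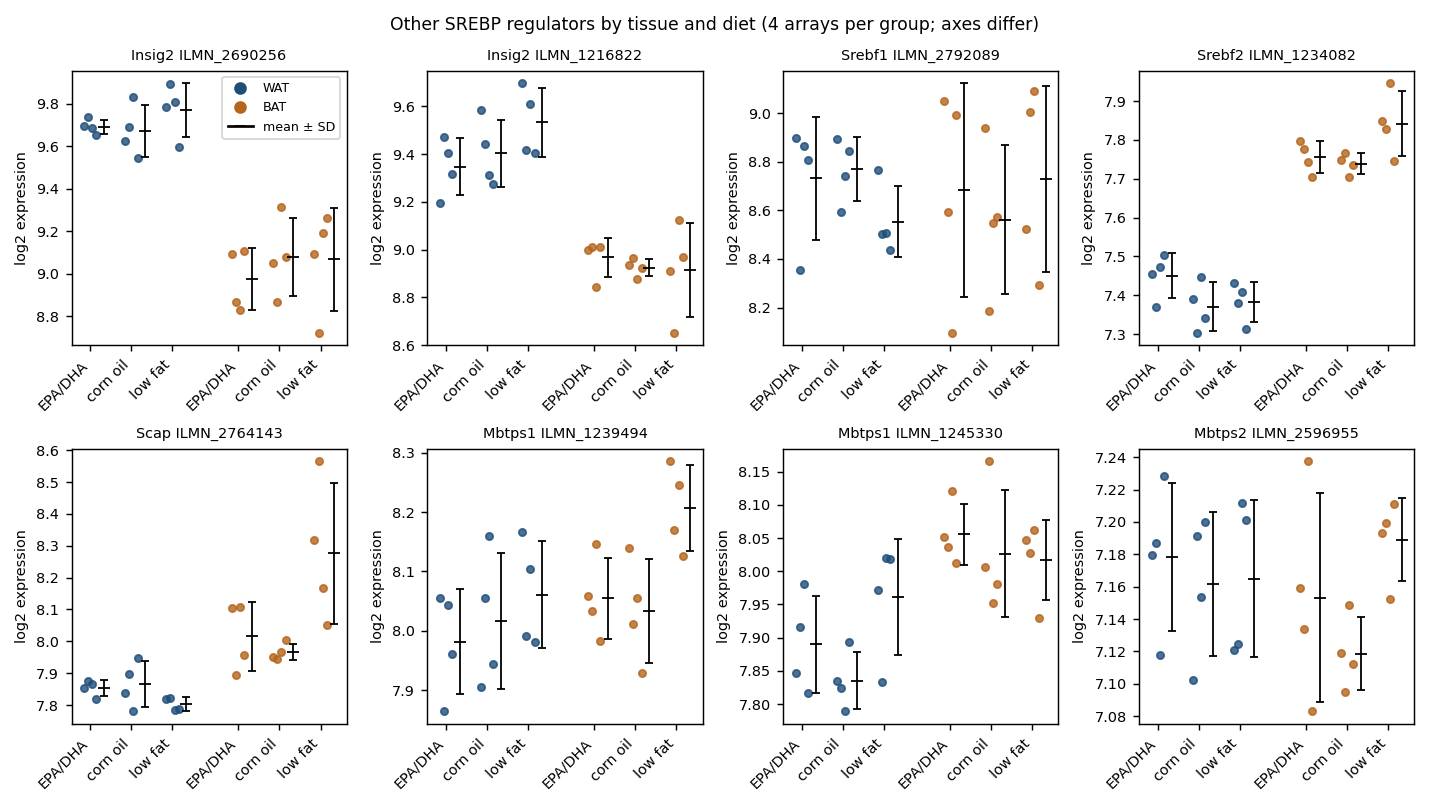
Log2 expression of 8 probes of the other 6 genes in WAT and BAT on the 3 diets, with 1 point per array and the mean ± SD of 4 arrays; each panel has its own axis. WAT arrays are above BAT arrays for both Insig2 probes and below them for Srebf2 ILMN_1234082, and the low-fat BAT arrays of Scap reach 8.56.

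No probe of the 6 genes other than Insig1 passed the test between diets. With limma, 0 of 13 probes passed in each of the 3 WAT comparisons, where 1.76% of all kept probes passed for EPA/DHA against corn oil, 2.93% for corn oil against low fat and 0.0479% for EPA/DHA against low fat. In BAT 0 of 13 passed in each comparison too, where 0%, 0% and 0.00736% of all probes did, so BAT offers little to read the count against. At an unadjusted p under 0.05 the counts were 1, 2 and 0 of 13 in WAT, where 14.7%, 16.1% and 7.59% of all probes were under it, and 0, 4 and 2 of 13 in BAT, where 4.65%, 8.06% and 5.05% were. All 4 in BAT were lower on corn oil than on low fat and were Scap ILMN_2764143, Mbtps1 ILMN_1239494 (-0.17 ± 0.05), Srebf2 ILMN_1223598 (-0.20 ± 0.08) and Srebf2 ILMN_1234082 (-0.10 ± 0.04). Without BAT low-fat replicate 2 Srebf2 ILMN_1223598 gave -0.106, and without BAT low-fat replicate 3 Srebf2 ILMN_1234082 gave -0.0681. The groups did not overlap for 1, 1 and 0 of 13 probes in WAT and 0, 2 and 0 of 13 in BAT, beside the shares of all probes given above. The 2 in BAT were Scap ILMN_2764143 and Mbtps2 ILMN_2596955, both lower on corn oil than on low fat. The median difference over the 13 probes lay between -0.04 and 0.02 in all 6 comparisons.

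The WAT effect of diet minus the BAT effect also passed for 0 of 15 probes of these 6 genes in each of 3 interaction tests (limma), against 0.197%, 0.505% and 0.0102% of all probes for EPA/DHA against corn oil, corn oil against low fat and EPA/DHA against low fat. At an unadjusted p under 0.05 there were 0, 1 and 3 of 15, where 7.22%, 11.2% and 6.35% of all probes were under it. The nearest was Scap ILMN_2764143 for corn oil against low fat, 0.37 ± 0.10 higher in WAT than in BAT with an adjusted p of 0.123. It passed, at an adjusted p of 0.0314, when BAT low-fat replicate 4 was left out.

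**Figure D3:**
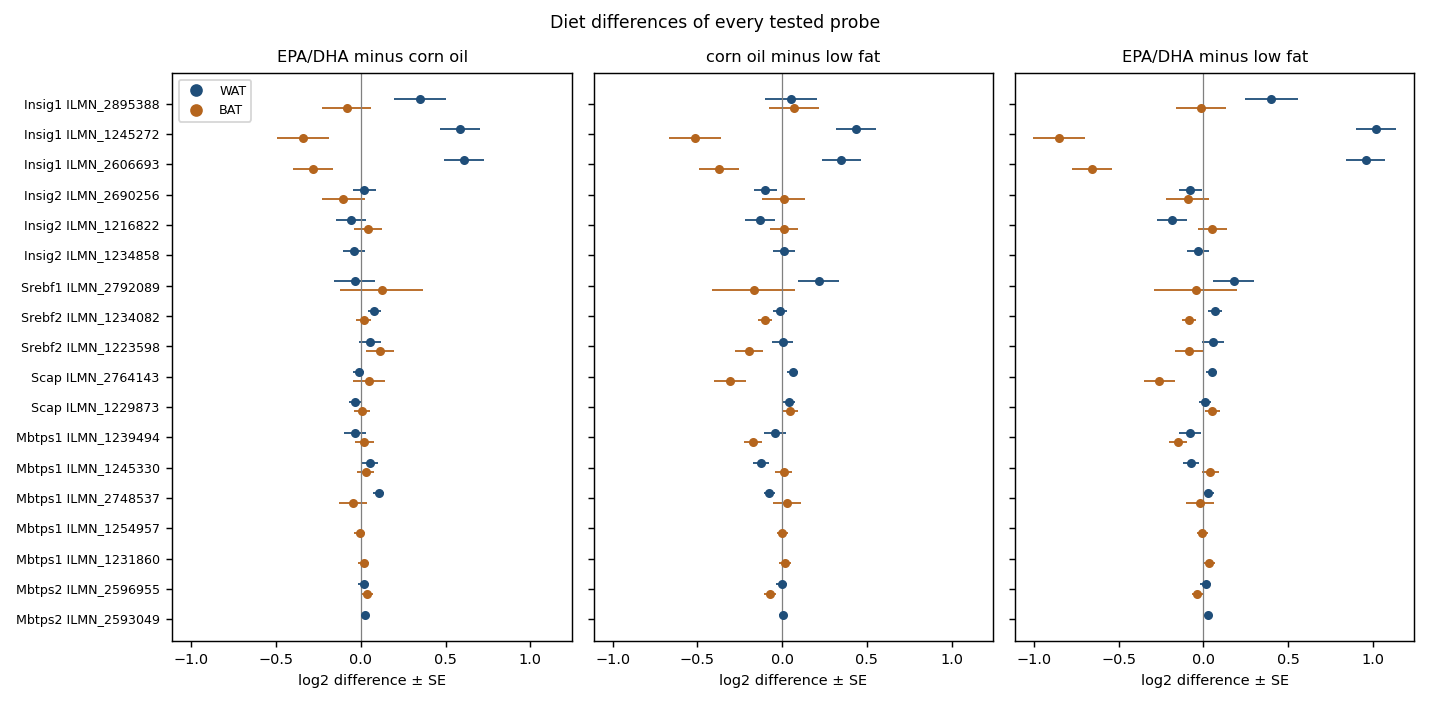
Log2 differences between diets, with 1 panel per comparison and 1 line per member probe that passed the filter, as the estimate ± SE from 12 arrays per tissue, in WAT and BAT. The Insig1 probes ILMN_1245272 and ILMN_2606693 lie to the right of 0 in WAT and to the left in BAT, and the probes of the other genes stay between -0.31 and 0.21.

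Between the tissues, 2 of the 3 Insig2 probes were higher in WAT than in BAT and a probe of Srebf2 was lower, on all 3 diets. Of the 15 probes of the 6 genes, 4 passed on EPA/DHA, 5 on corn oil and 4 on low fat (limma), against 31.7%, 34.4% and 37.5% of all probes, so the share of members was near that of all probes. Insig2 ILMN_2690256 was higher in WAT by 0.72 ± 0.11 on EPA/DHA, 0.60 ± 0.11 on corn oil and 0.70 ± 0.11 on low fat, with limma adjusted p of 1.62e-05, 0.000125 and 1.65e-05. Insig2 ILMN_1216822 was higher by 0.38 ± 0.09, 0.48 ± 0.09 and 0.62 ± 0.09 on the same diets. The third Insig2 probe, ILMN_1234858, lay close to the floor and gave 0.08 on each diet, with tissues that overlapped. It did not pass (limma adjusted p = 0.266, 0.304 and 0.265). Srebf2 ILMN_1234082 was lower in WAT, with differences of -0.30 ± 0.04, -0.37 ± 0.04 and -0.46 ± 0.04 and limma adjusted p of 4.15e-06, 2.55e-07 and 1.02e-08. The second Srebf2 probe, ILMN_1223598, gave -0.04, 0.01 and -0.18 and did not pass, so the probes of this gene disagreed. On low fat it did pass when BAT replicate 1 or 3 or WAT replicate 2 was left out (limma adjusted p = 0.0391, 0.0304 and 0.0201).

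Scap ILMN_2764143 was lower in WAT than in BAT on low fat, with a difference of -0.47 ± 0.07 (limma adjusted p = 2.19e-05), and gave -0.16 ± 0.07 on EPA/DHA (0.0974) and -0.10 ± 0.07 on corn oil (0.321). Mbtps1 ILMN_1245330 was lower in WAT on EPA/DHA (-0.17 ± 0.05, limma adjusted p = 0.013) and on corn oil (-0.19 ± 0.05, 0.00414), and gave -0.06 ± 0.05 on low fat (0.415). Without WAT EPA/DHA replicate 4 the first of these had an adjusted p of 0.0517. Mbtps1 ILMN_2748537 was lower in WAT on corn oil (-0.18 ± 0.06, limma adjusted p = 0.0345), a call that was lost without BAT corn-oil replicate 1 or 3 or any 1 of the 4 WAT corn-oil replicates. Srebf1 ILMN_2792089 gave 0.05, 0.21 and -0.17, each ± 0.20, and passed on no diet. Of the 15 probes, 4 passed the filter through 1 tissue only, which favours a difference between the tissues. Among the 11 kept in both tissues, 4, 5 and 4 passed on EPA/DHA, corn oil and low fat (limma), and 5, 5 and 4 had tissues that did not overlap. Of all probes kept in either tissue, 32.8%, 35.7% and 35.2% did not overlap. That is a wider set than the probes kept in both tissues, for which no share was computed. The counts over the 11 are therefore not read against it. The count over these 11 was added after the data had been seen.

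Insig1 is given here as a description. ILMN_1245272 differed between WAT and BAT by 0.39 ± 0.14 on EPA/DHA, -0.53 ± 0.14 on corn oil and -1.48 ± 0.14 on low fat, and ILMN_2606693 by 0.33 ± 0.12, -0.56 ± 0.12 and -1.28 ± 0.12. ILMN_2895388 was lower in WAT on each diet, with differences of -0.41 ± 0.16, -0.84 ± 0.16 and -0.82 ± 0.16, and WAT and BAT arrays did not overlap. At the first 2 of these probes the WAT and BAT arrays did not overlap on corn oil and on low fat, but overlapped on EPA/DHA. Leaving out 1 array gave 0.277 to 0.488 on EPA/DHA at ILMN_1245272 and 0.218 to 0.405 at ILMN_2606693, the 0.218 without WAT EPA/DHA replicate 4. The sign of the mean difference on EPA/DHA was thus opposite to that on the other diets, within arrays that overlapped. Beside all tissue differences stand the muscle and liver scores above, which also separate WAT from BAT; their part in the member values was not tested.

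**Figure D4:**
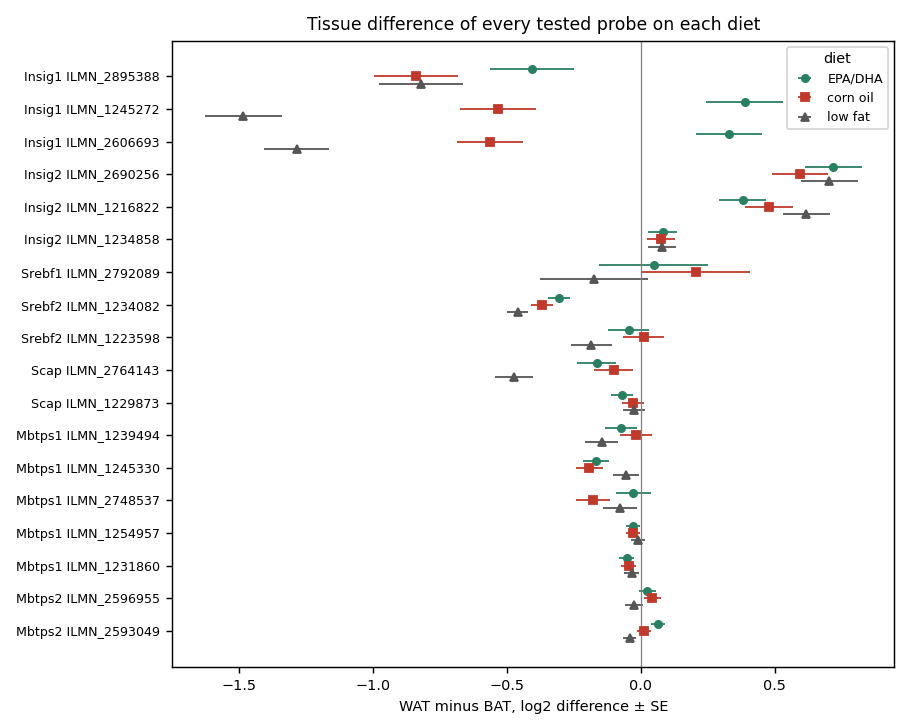
WAT minus BAT, in log2 units ± SE (24 arrays, 4 per group), for each member probe that passed the filter in either tissue, with 1 marker per diet. Insig2 ILMN_2690256 and ILMN_1216822 lie right of 0 on every diet, Srebf2 ILMN_1234082 lies left of 0, and Insig1 ILMN_1245272 spans -1.48 on low fat to 0.39 on EPA/DHA.

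The genes that SREBPs control were looked at beside their regulators. The list of cholesterol synthesis and uptake genes under Srebf2 held 22 genes, of which 16 were measured and the rest were not analysed here. In WAT, corn oil minus low fat was positive for 16 of 16 genes, with a median of 0.23 against -0.003 over all probes, and 2 rose by limma, beside 2.93% of all probes called. At an unadjusted p under 0.05 there were 10 of 16, beside 16.1% of all probes. The 2 were Hsd17b7, a sterol reductase (0.60 ± 0.10, adjusted p = 0.0168), and Cyp51, the lanosterol demethylase (0.46 ± 0.11, adjusted p = 0.0485). The Cyp51 call was lost whichever of the 8 arrays was left out (limma adjusted p = 0.0584 to 0.125), and without WAT low-fat replicate 4 the median was 0.14, with 16 of 16 still positive. EPA/DHA minus low fat in WAT was also positive for 16 of 16, with a median of 0.29, and 0 passed (11 at an unadjusted p under 0.05, beside 7.59% of all probes). EPA/DHA minus corn oil had a median of 0.0023, with 8 of 16 positive and 0 passing (0 at an unadjusted p under 0.05). The 2 first comparisons share the low-fat arrays.

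In BAT most genes of the list gave negative differences from low fat, by an amount that rested in part on 1 array. Corn oil minus low fat was positive for 2 of 16 genes with a median of -0.21, and EPA/DHA minus low fat for 2 of 16 with a median of -0.14. With limma 0 passed in either (4 and 3 at an unadjusted p under 0.05, beside 8.06% and 5.05% of all probes), and the one with the lowest adjusted p was Sqle, squalene epoxidase, at -0.63 ± 0.15 for corn oil against low fat (adjusted p = 0.299). The mean of the list was 8.66 in BAT low-fat replicate 2 and 8.21 to 8.30 in the other 3 low-fat arrays. Without that array the medians were -0.08 for corn oil minus low fat and -0.05 for EPA/DHA minus low fat, with 5 of 16 positive in each. Without BAT EPA/DHA replicate 4 the second was -0.22. The difference of the corn-oil effect between tissues passed for 1 of 16 genes, Hsd17b7, at 0.92 ± 0.16 (limma adjusted p = 0.00993), beside 0.505% of all probes. This difference was positive for 16 of 16 with a median of 0.47, or 0.32 without BAT low-fat replicate 2. At an unadjusted p under 0.05 there were 11 of 16, beside 11.2% of all probes. For EPA/DHA against low fat it was positive for 16 of 16, and 0 passed (limma; 10 at an unadjusted p under 0.05, beside 6.35%). For EPA/DHA against corn oil it was positive for 6 of 16, and 0 passed (limma). The cell type scores given above moved beside these values, and their part was not tested.

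The list of lipogenic genes under Srebf1 held 16 genes, of which 15 were tested in each tissue. EPA/DHA minus corn oil in WAT was positive for 12 of 15, with a median of 0.45, and 1 rose by limma, Thrsp, a regulator of lipogenesis (1.23 ± 0.14, adjusted p = 0.00241), beside 1.76% of all probes called. At an unadjusted p under 0.05 there were 5 of 15, beside 14.7% of all probes. Acacb, the mitochondrial acetyl-CoA carboxylase, gave 1.27 ± 0.28 with an adjusted p of 0.0502. In the same comparison 8 of 9 brown adipocyte genes were positive with a median of 0.38 (0 passed by limma, 4 at an unadjusted p under 0.05), and 2 of 10 liver genes were positive with a median of -0.96 (0 passed, 1 at an unadjusted p under 0.05). Macrophage genes had a median of -0.23, and the part of these cells in the lipogenic values was not tested. EPA/DHA minus low fat in WAT was positive for 13 of 15 lipogenic genes with a median of 0.39, and 0 passed (limma; 3 at an unadjusted p under 0.05, beside 7.59% of all probes). That median was 0.25 without WAT EPA/DHA replicate 3 and 0.22 without WAT low-fat replicate 4. Corn oil minus low fat in WAT had a median of 0.02, and Thrsp fell (-0.82 ± 0.14, limma adjusted p = 0.015). It was 1 of 15 to pass, beside 2.93% of all probes. In BAT 0 of 15 passed for EPA/DHA against corn oil, corn oil against low fat or EPA/DHA against low fat (limma). In that order 0, 4 and 5 were at an unadjusted p under 0.05, beside 4.65%, 8.06% and 5.05% of all probes. The medians were -0.03, -0.25 and -0.20. The second was -0.16 without BAT corn-oil replicate 2 and -0.12 without BAT low-fat replicate 3, and the third -0.06 without BAT EPA/DHA replicate 3. The EPA/DHA against corn oil effect differed between the tissues for Thrsp (1.18 ± 0.23, limma adjusted p = 0.0286), a call lost in 8 of 16 fits without 1 array. It was 1 of 15 to pass, beside 0.197% of all probes. For EPA/DHA against low fat the WAT effect minus the BAT effect was positive for 14 of 15, and 0 passed (limma). At an unadjusted p under 0.05 there were 8 of 15, beside 6.35% of all probes.

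**Figure D5:**
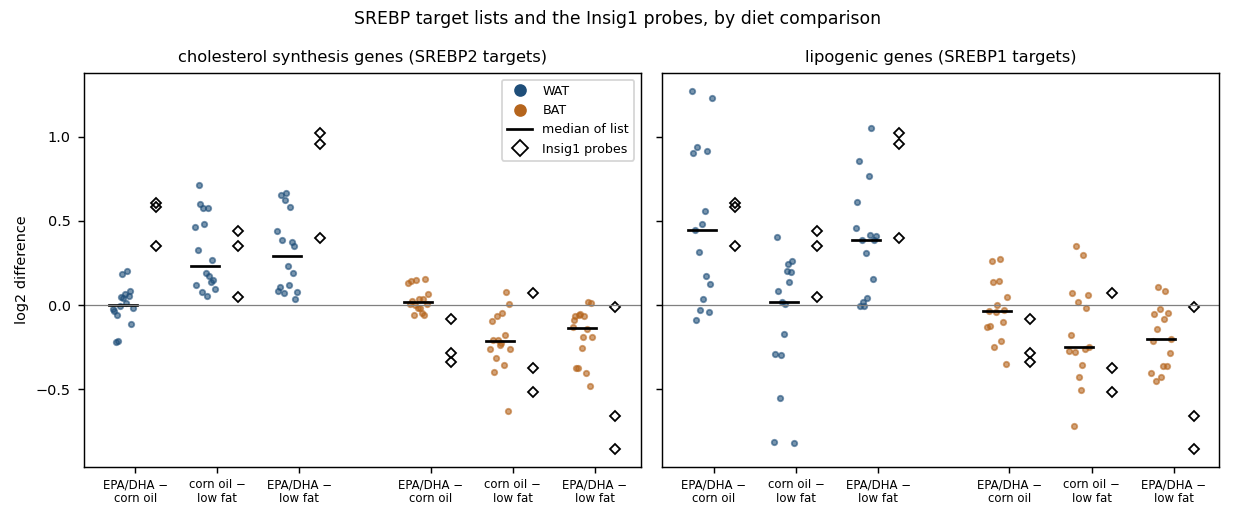
Log2 differences of the measured cholesterol synthesis genes (left) and lipogenic genes (right), with 1 point per gene, a bar at the median, and the 3 Insig1 probes above the floor as diamonds, for each diet comparison in WAT and BAT. All 16 cholesterol genes lie above 0 in both WAT comparisons with low fat, and for EPA/DHA minus corn oil in WAT the medians are 0.0023 and 0.45.

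Other machinery of the pathway was tested between the diets as well. Of the genes that degrade or stabilise Insig and SREBP proteins, such as the ubiquitin ligase Rnf139, 12 were tested in WAT and 11 in BAT. By limma 0 passed in any diet comparison, with at most 2 at an unadjusted p under 0.05 in one comparison. Over all probes, 0% to 2.93% passed in these comparisons, and 4.65% to 16.1% were at an unadjusted p under 0.05. Of 8 tested genes of the COPII coat, which carries Scap out of the endoplasmic reticulum, Sec24d rose (0.29 ± 0.06, limma adjusted p = 0.0363) and Sec24b fell (-0.42 ± 0.06, limma adjusted p = 0.0086) in WAT on corn oil against low fat. These were 2 of 8, beside 2.93% of all probes, with 4 of 8 at an unadjusted p under 0.05, beside 16.1% of all probes. For EPA/DHA against corn oil in WAT 0 of 8 passed (limma), with 5 of 8 at an unadjusted p under 0.05, beside 14.7%. Both genes encode cargo-binding subunits of the coat, and the Sec24b effect also differed between WAT and BAT (-0.65, limma adjusted p = 0.0436). That was 1 of 8 to pass, beside 0.505% of all probes. Leaving out 1 array ended the Sec24d call in 6 of 8 fits and the Sec24b difference between tissues in 14 of 16. For other proteins cut by the site-1 protease, 8 genes were tested in WAT, and Creb3 was the only one to pass there. It gave 0.46 ± 0.08 for corn oil against low fat (limma adjusted p = 0.0135) and -0.42 ± 0.08 for EPA/DHA against corn oil (limma adjusted p = 0.0221). That was 1 of 8 in each, beside 2.93% and 1.76% of all probes. At an unadjusted p under 0.05 there were 2 and 1 of 8, beside 16.1% and 14.7%. The second Creb3 call was lost in 5 of 8 fits without 1 array. Creb3 encodes a membrane-bound transcription factor. Of the liver X receptor and Pparg list, with 7 genes tested in WAT and 5 in BAT, 0 passed in any diet comparison (limma). At most 2 were at an unadjusted p under 0.05 in one comparison, beside the shares of all probes given for the Insig and SREBP protein list.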

How the data were processed

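RNA of 2 adipose tissues from mice on 3 diets had been measured on 24 Illumina arrays, 4 per group. The authors deposited log2 values, 1 per probe and array, which they had made with lumi 2.18.0, per the submitters' processing notes; their near-identical distributions show a quantile-type normalisation. Whether the scale is plain log2 or variance-stabilised is not given in the sources used here, so folds hold on that scale only. Probe names came from the platform annotation, in which 34885 probes had 1 symbol, 18 several and 10378 none.

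Each tissue's 12 arrays were fitted in limma 3.58.1 (R 4.3.3) with 1 mean per diet. Probes whose mean over the tissue's arrays was above the 40th percentile were kept (27168 per tissue). That cut was 7.107 in WAT and 7.109 in BAT, close to the floor. The shares of all probes therefore include probes near the floor, where differences can be understated, and no share was computed over brighter probes alone. A fit of all 24 arrays with 6 group means, over 29493 probes kept in either tissue, gave the interactions and WAT minus BAT. Tests were two-sided, adjusted by Benjamini-Hochberg over all kept probes, with a threshold of 0.05, and ± after a difference is its standard error. The procedure was tested on simulated data. P-values measure the spread between these arrays of selected mice, and precision was limited by their number.

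The 7 genes and the gene lists were chosen with earlier results of these data known. Every member probe is named; of a list, up to 4 genes past the threshold per comparison, each at its brightest probe. Acacb, Sqle and the genes most like Insig1 ILMN_1245272 and ILMN_2606693 were named after their values were seen. Promoter runs came from RefSeq, GRCm38.p6, in which all 7 genes were found. Alternatives were other filters, renewed normalisation, median centring, a trended prior, array weights, fits of other array sets, a replicate block, cell type scores as covariates and leaving out each replicate; leaving out each replicate for the gene lists was added after the data had been seen.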

Additional observations from a re-analysis of the deposited data

Results flagged for a closer look

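In 3 of 96 combinations of member probe and group, a single array lay far from the other 3 by Dixon's criterion, which chance alone meets in about 1 of 20 groups. Srebf1 ILMN_2792089 read 8.354 in WAT EPA/DHA replicate 2, against 8.81 to 8.90 in the other 3. Insig2 ILMN_1216822 read 8.8434 in BAT EPA/DHA replicate 3, below the other 3, which reached 9.01. Mbtps1 ILMN_1231860 read 7.169 in BAT low-fat replicate 2, against 7.07 to 7.09.

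For Insig1, in 3 cases the arrays of the compared diets did not overlap in either tissue and differed in opposite directions in WAT and BAT. The WAT effect minus the BAT effect was 1.8705 for EPA/DHA against low fat at ILMN_1245272, 1.6139 for the same comparison at ILMN_2606693 and 0.8915 for EPA/DHA against corn oil at ILMN_2606693. The difference was not tested, because Insig1 had been chosen on these values. At ILMN_2895388 the same comparisons gave 0.41 and 0.43, and its diets overlapped in both tissues.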

How the results depend on the processing

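Of 684 recomputed Insig1 values, 683 stayed within 1 SD of the spread between replicates; the exception was ILMN_2895388 for corn oil minus low fat in WAT, at -0.2666 with the macrophage score as a covariate. Leaving out each replicate gave 0.957 to 1.147 for EPA/DHA minus low fat in WAT at ILMN_1245272, 0.844 to 1.047 at ILMN_2606693 and 0.312 to 0.540 at ILMN_2895388. For the other 6 genes no diet count changed, except that 1 probe passed the corn oil against low fat interaction when BAT low-fat replicate 4 was left out (range 0 to 1). The counts of WAT against BAT calls ran from 3 to 5 on EPA/DHA, and from 4 to 5 on corn oil and on low fat. Mbtps1 ILMN_1245330 on EPA/DHA and Mbtps1 ILMN_2748537 on corn oil did not pass with a trended and robust prior (limma adjusted p = 0.0649 and 0.0531). Scap ILMN_2764143 on EPA/DHA passed with array weights (limma adjusted p = 0.0399). Mbtps1 ILMN_1239494 on low fat passed with array weights (0.0482) and without WAT low-fat replicate 1 (0.0338) or BAT low-fat replicate 4 (0.0451). Mbtps2 ILMN_2593049 on EPA/DHA, close to the floor, passed with a trended and robust prior (limma adjusted p = 0.0491) and without BAT EPA/DHA replicate 4 (0.00665).

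Same-numbered arrays of a diet had a median r of -0.034 between tissues (0.003 for other numbers), and same-numbered arrays of a tissue 0.094 between diets (-0.018 for other numbers), from -0.359 to 0.546. Of 24 arrays, 3 correlated best with their own number between tissues, and in 17 of 48 cases between diets. Since not every pair was above 0.1, the numbers were taken as names. With a replicate block, Mbtps1 ILMN_2748537 on corn oil had an adjusted p of 0.063 and Mbtps1 ILMN_1239494 on low fat 0.0347 (limma).

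Counts over all probes moved more. In WAT, EPA/DHA against corn oil gave 301 with the liver score and 175 to 465 without 1 replicate (477 as reported), corn oil against low fat 500 with the replicate block and 266 to 602 without 1 replicate (797), and EPA/DHA against low fat 0 to 7 under 7 other settings and 0 to 9 without 1 replicate (13). In BAT, a fit of all 24 arrays gave 6, 150 and 25 in the same order, a trended and robust prior gave 11 for the second, other settings gave 0 or 1 for the third, and leaving out 1 replicate gave 0, 0 to 2 and 0 to 3 (0, 0 and 2 as reported). With the replicate block the interactions gave 18 and 56 for EPA/DHA against corn oil and corn oil against low fat (58 and 149), and without 1 replicate 34 to 74, 55 to 149 and 2 to 5 for EPA/DHA against low fat (3). The causes were not tested. Probes near the floor, among them all of Mbtps2, limit what these arrays can show.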
